A study of Hordeum vulgare with 18 samples.

Results

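Of the 68630 loci counted in this study of highland barley, 4 are described here: a urea carrier, a pair of enzymes of purine and ureide breakdown, and a protein that activates urease. They were taken as a fixed list of locus identifiers, D1007_41289 (DUR3), D1007_27011 (uricase), D1007_57662 (allantoate deiminase) and D1007_32185 (urease accessory protein G), and all 4 had enough reads to be tested in both tissues. The list was drawn up with results of these same libraries known. Uricase was selected on its adjusted p in leaf at 100% against 0% organic nitrogen, DUR3 after its leaf values had been seen, and allantoate deiminase on its abundance, while the sources used here give no reason for urease accessory protein G. Their differences between fertilizer rates are therefore given as descriptions, and a test on them is no evidence.

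Urea reaches plant nitrogen metabolism from outside, through carriers such as DUR3, and from inside, where arginase releases it from arginine. Urease, a nickel enzyme that needs accessory proteins to load its metal, splits urea into ammonia and carbon dioxide. Purines from nucleotides and nucleic acids are broken down to uric acid, which uricase oxidises in the peroxisome on the way to allantoin. Allantoin and allantoate, the ureides, are then hydrolysed step by step, and their nitrogen is released as ammonium, a route known for nitrogen recovery from ageing leaves.

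Highland barley, a hulless barley, was grown in pots of 3.5 kg of soil and sampled at flowering. Nitrogen of the 0% pots, the controls, came from 357 mg of urea, given with potassium sulfate (140 mg) and superphosphate (1545 mg). In the 40% pots organic fertilizer (1117 mg) stood in for 40% of the nitrogen, and urea was cut to 215 mg, potassium sulfate to 122 mg and superphosphate to 1443 mg. The 100% pots had 2793 mg of organic fertilizer and no urea, with potassium sulfate at 96 mg and superphosphate at 1289 mg. Total nitrogen, phosphorus and potassium were the same at each rate, so urea, organic fertilizer and the other salts varied together and their parts cannot be told apart. Each of the 6 groups, leaf and root at the 3 rates, held 3 libraries. The titles say leaf and root, while the design text speaks of plant parts above and below the ground. Whether the replicates were separate plants or pots is not in the labels, so a p-value here speaks of the spread between samples that may be technical.

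Libraries held 12970908 to 18985201 counts. Levels are given as CPM, the count of a gene per 1e6 counts of its library. The 47 loci annotated as Rubisco small subunit or chlorophyll-binding protein summed to 47900 to 112000 CPM in leaf and 11.4 to 19.3 CPM in root. Pollen and anther markers summed to 115 to 221 CPM in leaf and 685 to 903 CPM in root. They were higher in root, against their label, and were not used. The list meant for root went against its label, at 376 to 2500 CPM in leaf and 65 to 169 CPM in root, and was not used. Markers of leaf senescence, 38 loci of which 18 or 19 had a count in each leaf group, differed most within the control leaves, at 21900, 3570 and 21800 CPM in replicates 1, 2 and 3. They lay at 1990 to 2590 CPM in the 40% leaves, 3850 to 9060 CPM in the 100% leaves and 270 to 663 CPM in root. Control leaf 2 thus stood apart from the other control leaves. Results that rest on this group are given with that library named.

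DUR3 (D1007_41289, scaffold SDOW01000541.1, 897508 to 899915, plus strand) was the only locus annotated as a urea-proton symporter. DUR3 is known in rice and Arabidopsis as a high-affinity urea carrier of the plasma membrane. In leaf it was at 127, 31 and 145 CPM in control replicates 1, 2 and 3. The 40% leaves had 12, 19.9 and 14.5 CPM and the 100% leaves 29.1, 26.1 and 8.24 CPM. In CPM every control leaf was above every leaf of the other rates, although control leaf 2 exceeded the highest 100% leaf only narrowly. Library size alone, as in CPM, moved the median of all genes at 100% against 0% by -0.25 from that of the fit. Whether control leaf 2 stays above the 100% leaves with the scaling of the fit was not examined. The means were 101 ± 61.4 CPM at 0%, 15.5 ± 4.01 at 40% and 21.2 ± 11.3 at 100% (SD, n = 3). On the log2 scale the 40% leaves differed from the controls by -2.69 ± 0.61 (SE) and the 100% leaves by -2.00 ± 0.59, 2 comparisons that share their control libraries. In bulk tissue, fewer cells of a type and less RNA per cell cannot be told apart.

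In root DUR3 did not separate the rates. The controls had 42.8, 28.8 and 17.8 CPM, the 40% roots 30.5, 50.7 and 38.9 CPM, and the 100% roots 32.5, 38.7 and 47.8 CPM. All 3 groups overlapped, and the log2 differences from the controls were 0.44 ± 0.28 at 40% and 0.38 ± 0.28 at 100%. At 40% and at 100% the CPM of DUR3 was thus below the controls in leaf and overlapped them in root. The response of root minus that of leaf was 3.11 ± 0.71 at 40% and 2.35 ± 0.70 at 100%.

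Uricase (D1007_27011, scaffold SDOW01000284.1, 3044203 to 3056625, minus strand) was ordered by rate in leaf. It was at 281, 132 and 283 CPM in the control leaves, at 118, 97.3 and 120 CPM in the 40% leaves, and at 34.8, 37.5 and 41.9 CPM in the 100% leaves. No library overlapped between any of these 3 groups, and the 100% leaves lay close together. The means were 232 ± 86.8, 112 ± 12.5 and 38.1 ± 3.57 CPM (SD, n = 3). The 100% leaves differed from the controls by -2.35 ± 0.29 on the log2 scale and from the 40% leaves by -1.29 ± 0.28, and the 40% leaves differed from the controls by -1.06 ± 0.28.

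Root uricase lay in a narrower range. The control roots had 50.8, 52 and 42.1 CPM, the 40% roots 80, 61.7 and 74.5 CPM, and the 100% roots 47.5, 63.3 and 67.1 CPM. Every 40% root was above every control root, by 0.56 ± 0.14 on the log2 scale, while the 100% roots overlapped both other groups. At 40%, leaf and root thus lay on opposite sides of their controls in all libraries, and the response of root minus leaf was 1.60 ± 0.33. At 100% it was 2.56 ± 0.33.

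**Figure D1:**
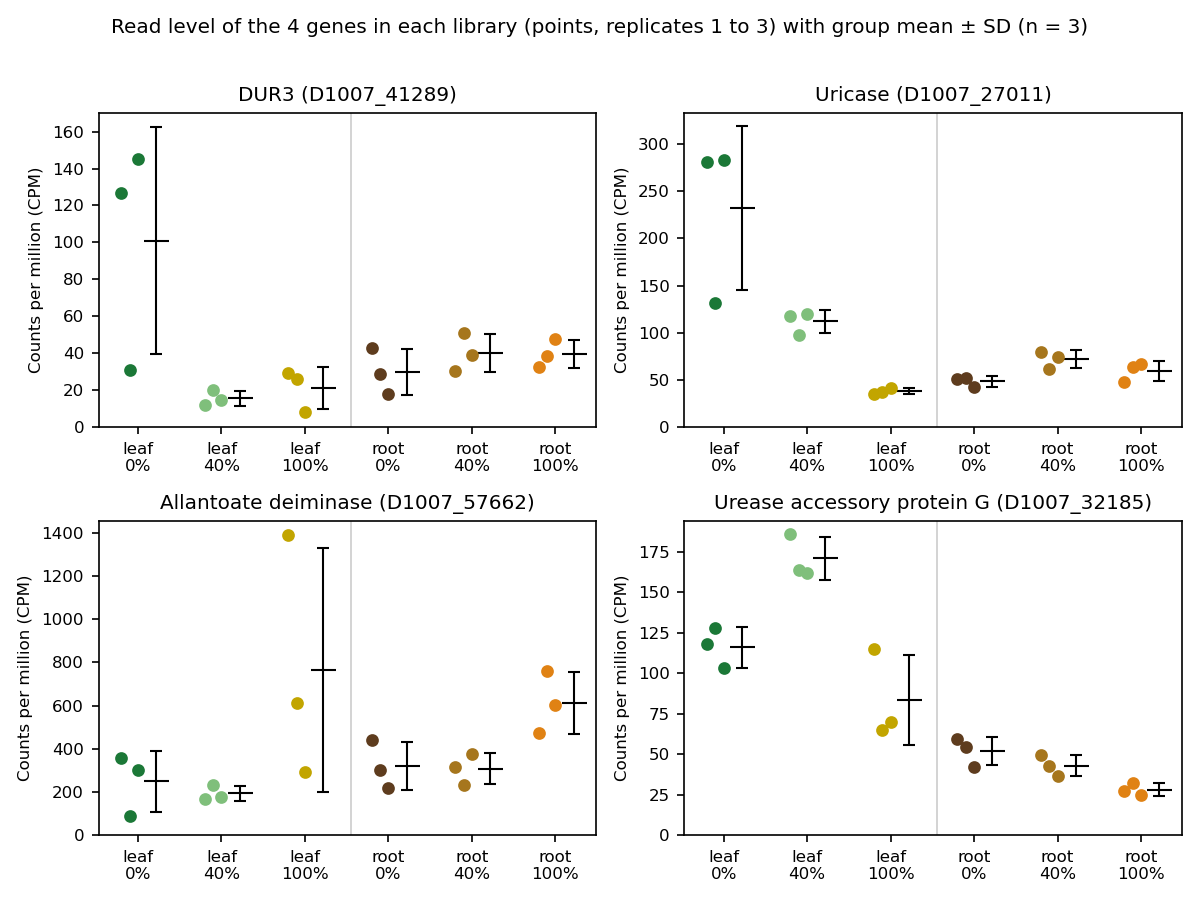
Level of each of the 4 genes, in CPM on the vertical axis starting at 0, in the 6 groups of leaf and root at 0, 40 and 100% organic nitrogen. Points are libraries, replicates 1 to 3 from left to right, and bars are the group mean ± SD (n = 3): control leaf 2 is the lowest control leaf for DUR3 (31), uricase (132) and allantoate deiminase (87.8), and the uricase libraries of the 3 leaf groups do not overlap.

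Allantoate deiminase (D1007_57662, scaffold SDOW01001120.1, 90545 to 95340, plus strand) releases ammonium from allantoate, and in leaf at 100% it had the widest spread of any group of the 4 genes. The control leaves had 357, 87.8 and 303 CPM, and the 40% leaves 167, 233 and 177 CPM. The 100% leaves had 1390, 613 and 291 CPM, with an SD of 564 around a mean of 764, so the highest library was 4.76 times the lowest. Those 100% leaves were all above the 40% leaves, by 2.24 ± 0.62 on the log2 scale. They overlapped the controls, from which they differed by 1.88 ± 0.61. Without 100% leaf 1 the latter difference was 1.09, and the difference from the 40% leaves 1.45.

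Root allantoate deiminase was at 438, 302 and 220 CPM in the controls, at 316, 231 and 374 CPM at 40%, and at 472, 762 and 602 CPM at 100%. Every 100% root was above every root of the other rates, while the 40% roots and the controls overlapped. The 100% roots differed from the controls by 0.90 ± 0.26 on the log2 scale and from the 40% roots by 0.97 ± 0.26. This gene had higher means at 100% than at 0% in both tissues. They were 764 ± 564 against 249 ± 142 CPM in leaf and 612 ± 145 against 320 ± 110 CPM in root (SD, n = 3). DUR3 and uricase had higher means at 100% than at 0% in root only, where their groups overlapped.

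Urease accessory protein G (D1007_32185, scaffold SDOW01000360.1, 1864528 to 1867765, plus strand) is the GTP-binding accessory protein, known in plants for its part in activating urease. In leaf it was at 118, 128 and 103 CPM in the controls, 186, 164 and 162 CPM at 40%, and 115, 64.9 and 69.6 CPM at 100%. The 40% leaves were above all other leaves, by 0.55 ± 0.25 over the controls on the log2 scale, and the 100% leaves differed from the 40% leaves by -0.77 ± 0.25, without overlap. Between 100% and 0% the leaves overlapped, at -0.23 ± 0.25, and this value was -0.55 without 100% leaf 1 and -0.060 without 100% leaf 2.

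In root the same gene was at 59.2, 54.1 and 42.2 CPM in the controls, 49.3, 42.7 and 36.3 CPM at 40%, and 27.1, 32.4 and 24.7 CPM at 100%. Every 100% root was below every root of the other rates. The difference was -0.92 ± 0.17 from the controls and -0.63 ± 0.17 from the 40% roots, and the 40% roots and the controls overlapped. The leaf order (40%, 0%, 100%) and the root order (0%, 40%, 100%) of the means thus differed at the 40% rate.

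A second locus of the same annotation, D1007_58100 (scaffold SDOW01001144.1, 766650 to 779195, plus strand), has an annotated length of 420 bases against 1298. Whether the sequences of the pair are alike was not examined. If they are near-identical, reads may have been split or shared between them, and the values of both would be uncertain. D1007_58100 was at 5.18 ± 2.03, 13 ± 0.966 and 5 ± 1.81 CPM in leaf at 0, 40 and 100%, and under 1 CPM in mean in each root group. Its leaf means were also highest at 40%. None of the other pathway loci described below lies on a scaffold of any of the 4 genes.

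**Figure D2:**
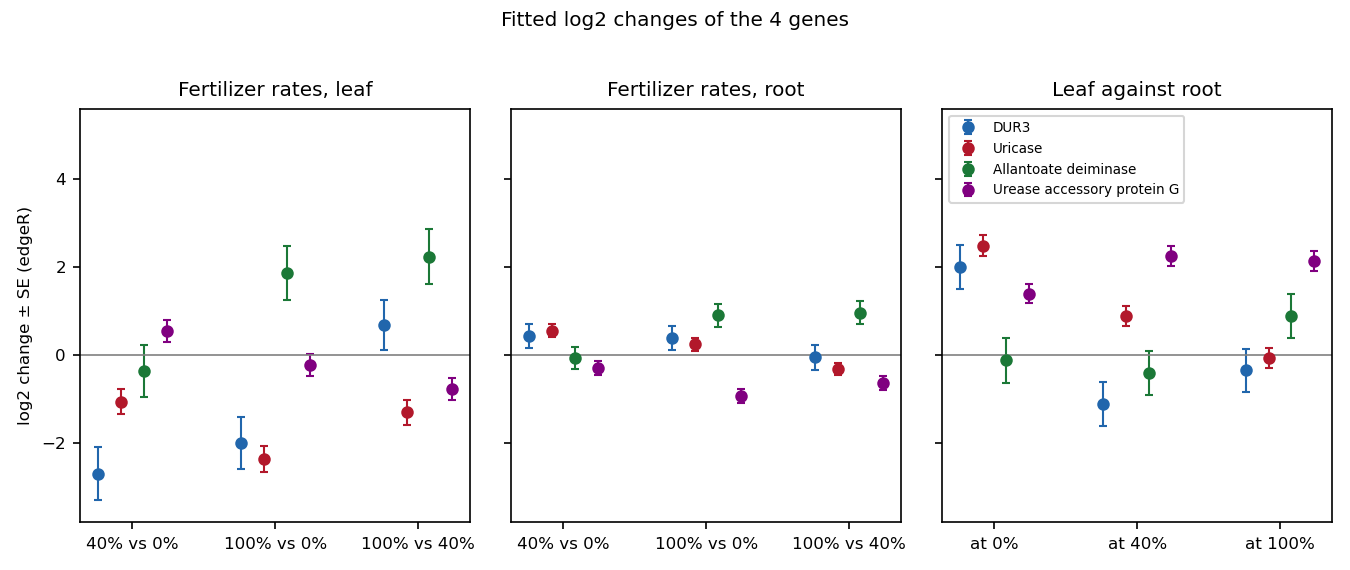
Fitted log2 changes of the 4 genes (vertical axis, points with SE) between fertilizer rates in leaf (left) and in root (middle), and between leaf and root at each rate (right). In leaf at 100% against 0%, DUR3 (-2.00) and uricase (-2.35) lie below 0 and allantoate deiminase (1.88) above it, and urease accessory protein G is above 0 in leaf against root at every rate.

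How many of the 4 passed the test that was run over all genes is given once, beside the share of all genes that passed. Those same results chose the genes, so nothing is read from the counts or from how they hold under other settings. A gene was called at a Benjamini-Hochberg adjusted p of 0.05 in edgeR's quasi-likelihood test over all genes. In leaf, 2 of the 4 were called lower at 100% against 0%, DUR3 and uricase, where 22.9% of all tested genes were called. None were called at 40% against 0% (0.00998% of all), and at 100% against 40% uricase was called lower and allantoate deiminase higher (18.6% of all). In root, urease accessory protein G was called lower at 100% against 0% (10.2% of all), and none of the 4 was called at 40% against 0% (0.306%) or at 100% against 40% (4.59%). The difference in response between root and leaf was called for DUR3 and uricase at 100% (15.9% of all) and at 40% (1.9% of all).

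Leaf was compared with root on all 18 libraries. Uricase, DUR3 and allantoate deiminase were chosen on leaf values that also enter this comparison, so their differences carry no p at any rate. Why urease accessory protein G was chosen is not known, so its differences are also descriptions with no p. Urease accessory protein G was higher in leaf at every rate. Its log2 differences were 1.40 ± 0.22 at 0%, 2.25 ± 0.23 at 40% and 2.14 ± 0.23 at 100%. All leaf libraries were above all root libraries of the same rate. The same held for D1007_58100, at 2.69 ± 0.45, 4.41 ± 0.49 and 3.89 ± 0.49 (edgeR, adjusted p = 0.0001, 1.4e-06 and 5e-06).

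Uricase at 40% was higher in leaf by 0.88 ± 0.23, without overlap. At 0% the control leaves were all above the control roots, with a fitted difference of 2.49 ± 0.24. At 100% it was -0.07 ± 0.23, although the CPM of every 100% leaf was below that of every 100% root. With library size alone as the scaling, the latter was -0.64.

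For DUR3 the fitted difference of leaf from root at 0% was 2.00 ± 0.51, with control leaf 2 inside the range of the control roots. At 40% and 100% every leaf was below every root in CPM, with fitted differences of -1.11 ± 0.50 and -0.34 ± 0.49. For allantoate deiminase the tissues overlapped at every rate, at -0.12 ± 0.50, -0.40 ± 0.50 and 0.89 ± 0.51.

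Of all tested genes, 56.2, 59.7 and 63.1% were called between leaf and root at 0, 40 and 100%, beside 3, 2 and 1 of the 4 genes, counts from which nothing is read. Library size alone in place of the TMM factors moved the median of all genes in these comparisons by -0.23, -0.25 and -0.57, and in leaf at 100% against either other rate by -0.25.

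By mean CPM, DUR3 was highest in control leaf, followed by 40%, 100% and 0% root and then by 100% and 40% leaf, and each neighbour in that order overlapped the next. Uricase ran from control leaf through 40% leaf to 40% root without overlap, then through 100% and control root with overlap, and ended with 100% leaf below all of them. Allantoate deiminase was highest in 100% leaf and 100% root, which overlapped, and the other 4 groups lay below 100% root with overlap among neighbours. Urease accessory protein G ran from 40% leaf through 0% and 100% leaf, which overlapped each other, to 0% and 40% root, which overlapped, and then to 100% root.

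Levels of different genes were compared as CPM per kilobase of the deposited gene length. In leaf, DUR3 was the lowest of the 4 in 9 of 9 libraries, at 3.8 to 67 with a median of 12.1 CPM per kilobase. Uricase ranged from 22.9 to 186 (median 77.4), urease accessory protein G from 50 to 143 (median 91.3) and allantoate deiminase from 45.5 to 720 (median 151). The highest of the 4 in leaf was allantoate deiminase in 4 libraries, urease accessory protein G in 4 and uricase in 1. In root, allantoate deiminase was the highest in 9 of 9 libraries, at 114 to 395 (median 194). That gene was chosen on its abundance, so its rank among the 4 restates the choice. DUR3 was the lowest in 8 of 9, at 8.21 to 23.4 (median 17.9), beside 27.7 to 52.6 for uricase and 19 to 45.6 for urease accessory protein G.

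**Figure D3:**
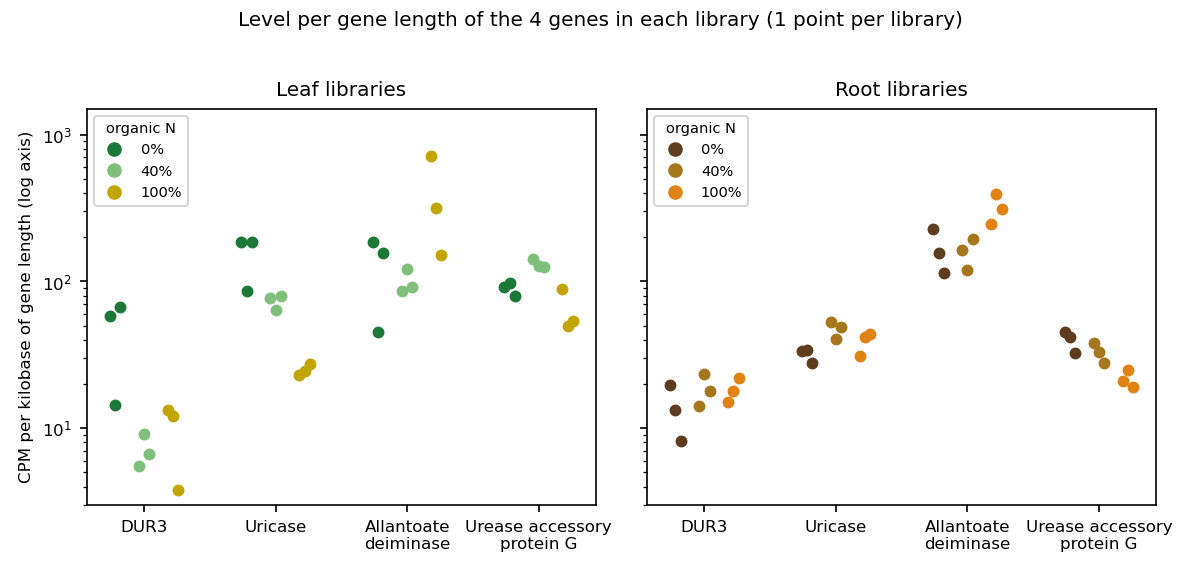
Level of the 4 genes per gene length, in CPM per kilobase on a log axis, with 1 point per library, for 9 leaf libraries (left) and 9 root libraries (right) coloured by the share of organic nitrogen. DUR3 is the lowest of the 4 in 9 leaf and 8 root libraries. Allantoate deiminase, which was chosen on its abundance, is the highest in all 9 root libraries.

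The rest of the pathway was taken as the 45 other loci whose annotation names urea, urease, arginine breakdown, purine breakdown or ureides, a list also made with earlier results known. Of these, 28 could be tested in leaf and 31 in root, and 11 had no read in any library. The words also matched 15 loci whose annotation names another enzyme, such as aldehyde oxidase, or a transposon. In leaf at 100% against 0%, 0 of 28 rose and 5 fell, which is 17.9% beside 22.9% of all tested genes, and their median log2 change was -0.46 beside -0.07 for all genes. The 5 spread over 4 roles. The ureide permease D1007_07614, which carries allantoin and nucleobases in Arabidopsis, went from 161, 51.1 and 233 CPM in the control leaves to 19.3, 21.6 and 8.3 CPM (-2.92 ± 0.52, edgeR adjusted p = 0.0045). In root it was at 216 ± 28, 189 ± 37.4 and 151 ± 32.7 CPM at 0, 40 and 100% and was not called.

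Urease accessory protein F, an assembled locus on scaffold SDOW01000586.1 (1406454 to 1411983, plus strand), works with protein G in loading the metal of urease. It fell from 32.3, 27.5 and 32.9 CPM in the control leaves to 6.72, 9.86 and 8.3 CPM (-1.65 ± 0.22, edgeR adjusted p = 0.0011). Urease itself, D1007_07839, was the most abundant other locus of its role per length and was called in no fertilizer comparison, at 134 ± 25.3, 120 ± 14.5 and 92.2 ± 26.5 CPM in leaf and 102 ± 29.9, 110 ± 3.57 and 118 ± 10 CPM in root. In leaf at 100% against 0% urease changed by -0.29 ± 0.23, and whether accessory protein F differed from it was not tested.

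Arginase D1007_33546, which splits arginine into urea and ornithine, fell from 185 ± 95.5 to 51 ± 2.6 CPM (-1.60 ± 0.37, edgeR adjusted p = 0.014), a call lost without control leaf 1 or 3. Uridine nucleosidase 2, D1007_50191, fell from 150 ± 75.6 to 35.5 ± 6.91 CPM (-1.82 ± 0.41, edgeR adjusted p = 0.013), lost without control leaf 3. The fifth was an N6-mAMP deaminase, D1007_45517, from 23.9 ± 5.49 to 10.6 ± 3.5 CPM (-0.93 ± 0.30, edgeR adjusted p = 0.05), one of the loci that name another enzyme. For arginase, the nucleosidase and the ureide permease, control leaf 2 was the lowest control leaf, at 75.1, 62.3 and 51.1 CPM, as it was for DUR3, uricase and allantoate deiminase.

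At 40% against 0% in leaf none of the 28 was called by edgeR, while 14 had an unadjusted p under 0.05, 7 were called by DESeq2 and 12 by edgeR without control leaf 2. At 100% against 40% in leaf 2 rose and 2 fell, or 1 and 4 with library size alone as the scaling. Accessory protein F (-1.35 ± 0.21, edgeR adjusted p = 0.0036) and the ureide permease (-1.61 ± 0.49, adjusted p = 0.048) fell, the latter lost without control leaf 1, any 40% leaf or any 100% leaf. The permease call was also lost with RLE factors (edgeR, adjusted p = 0.052) and with a replicate block (adjusted p = 0.083). Aldehyde oxidase 2, D1007_47698 (1.11 ± 0.28, edgeR adjusted p = 0.025, lost without any 40% leaf or 100% leaf 1 and with library size alone), and a beta-glucosidase-like locus, D1007_13934 (4.48 ± 1.07, adjusted p = 0.019, lost without 40% leaf 1), rose. Neither is named for a step of purine or ureide breakdown by its closest protein.

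In root at 100% against 0%, 1 of 31 other pathway loci rose and 0 fell, which is 3.23% beside 10.2% of all tested genes, with a median log2 change of -0.02 beside 0 for all genes. The riser was annotated as allantoinase, the enzyme that opens allantoin to allantoate, and was assembled from the reads (scaffold SDOW01000729.1, 1502269 to 1502793, minus strand). It was at 2.15 ± 0.979 CPM in the controls and 5.85 ± 0.259 CPM at 100% (1.41 ± 0.32, edgeR adjusted p = 0.025). This call was lost without control root 2 or 3 or 100% root 1 or 3, and with both tissues in 1 fit. An adjacent assembled locus of the same annotation (1502856 to 1504137) had 3.48 ± 0.855 and 6.83 ± 1.13 CPM and was not called. The pair, of 255 and 827 bases on the same strand, may be parts of 1 gene, which was not tested. The next enzyme on, allantoate deiminase, was above the controls in every 100% root, by 0.90 ± 0.26 on the log2 scale, a description with no test. Any link between the steps was not tested.

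At 40% against 0% in root 0 of 31 were called, with 4 at an unadjusted p under 0.05 and 1 called by DESeq2. At 100% against 40% 1 rose, aldehyde oxidase 3, D1007_47702 (0.74 ± 0.18, edgeR adjusted p = 0.048), again a locus that names another enzyme and one lost without any of 8 of the 9 root libraries. The call was also lost with no filter, a replicate block, the compared groups alone and both tissues in 1 fit. Median changes were -0.03 and 0.02, beside 0.01 and -0.02 for all genes.

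**Figure D4:**
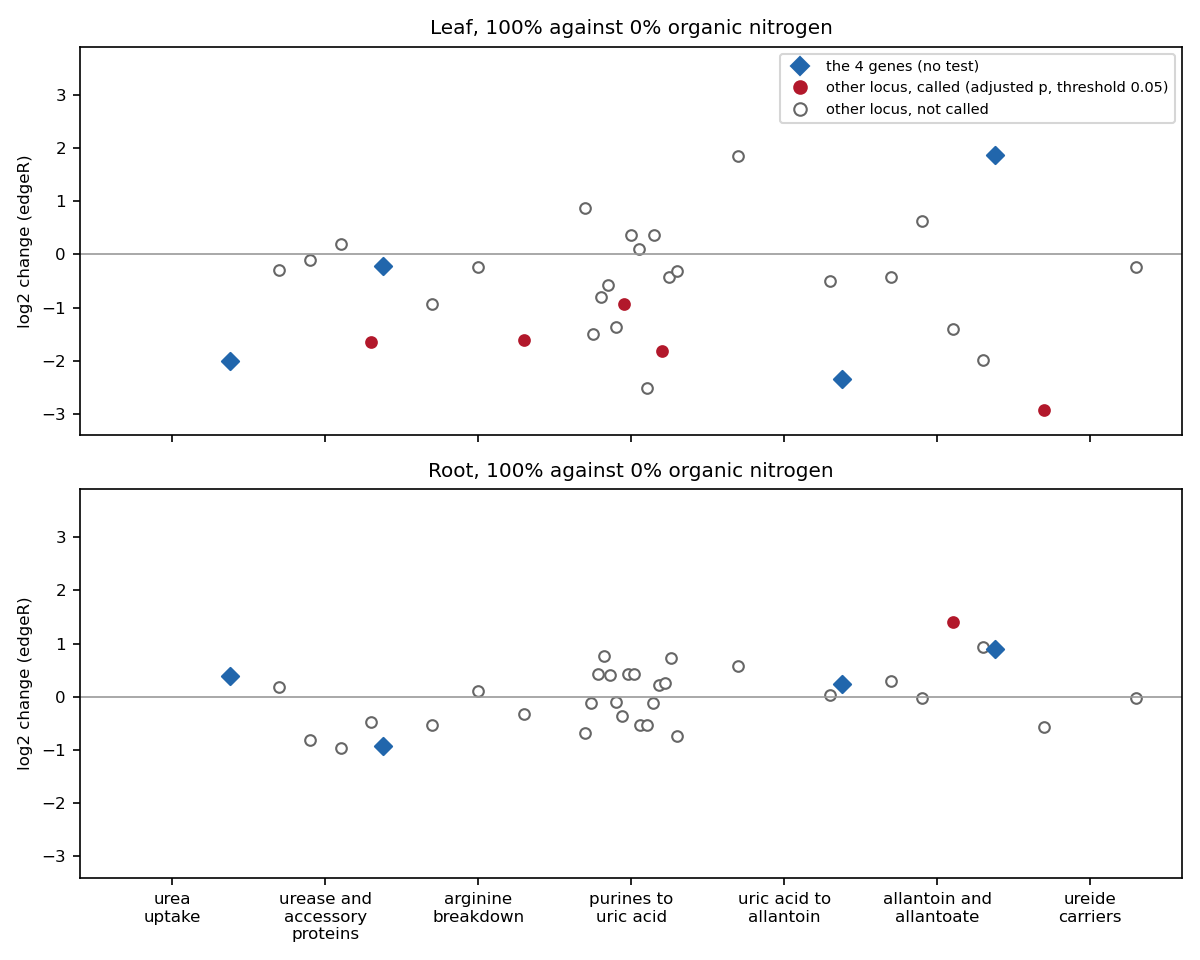
Fitted log2 change at 100% against 0% organic nitrogen (vertical axis) of each tested locus of urea, arginine, purine and ureide metabolism, by role, in leaf (top) and root (bottom). Diamonds are the 4 genes, which carry no test, filled circles the other loci that were called and open circles those that were not: 5 of 28 others are called in leaf, all lower, and 1 of 31 in root, higher.

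Between tissues, 14 of 31 other pathway loci were higher and 7 lower in leaf at 0%, 7 and 9 at 40%, and 4 and 5 at 100%. These are 67.7, 51.6 and 29% of the loci, beside 56.2, 59.7 and 63.1% of all tested genes. With library size alone as the scaling these counts were 9 and 7, 6 and 9, and 2 and 13. Ornithine aminotransferase D1007_24459, which acts after arginase, was higher in leaf at each rate, by 2.38 ± 0.27, 1.49 ± 0.26 and 2.06 ± 0.27 (edgeR, adjusted p = 2e-06, 0.00016 and 7.7e-06). Accessory protein F was higher in leaf at 0% by 1.52 ± 0.19 (adjusted p = 4.6e-06). The ureide permease was lower in leaf, at -1.42 ± 0.41 at 40% and -2.64 ± 0.42 at 100% (edgeR, adjusted p = 0.0069 and 6.3e-05). An aldehyde oxidase-like locus, D1007_45910, had no count in any of the 9 leaf libraries, where 3 counts would be 0.158 to 0.182 CPM, and 4.71 ± 0.786, 4.18 ± 0.932 and 3.75 ± 0.875 CPM in root. Aldehyde oxidase 3, D1007_47702, was lower in leaf, at -4.46 ± 0.23, -4.02 ± 0.22 and -4.76 ± 0.23 (edgeR, adjusted p = 5.8e-10, 1.2e-09 and 1.9e-10). Of the loci nearest in the route to uricase and allantoate deiminase, the bifunctional protein TTL D1007_38390, which converts the product of uricase to allantoin in Arabidopsis, was at 9.42 to 15.9 CPM in the leaf means and 18.2 to 19.3 CPM in the root means and was called in no comparison. Ureidoglycolate hydrolase D1007_27818, the last enzyme of ureide breakdown, was called in none of the fertilizer comparisons and was higher in leaf at 0% by 0.75 ± 0.23 (edgeR, adjusted p = 0.012), a call lost without control leaf 3 (adjusted p = 0.084) or with library size alone (adjusted p = 0.087).

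Among the control leaves, the summed leaf senescence markers and 3 of the 4 genes were lowest in replicate 2, a pattern that rests on that library. Which marker loci make up the sum was not examined. Control leaves 1 and 3, at 21900 and 21800 CPM of these markers, had 127 and 145 CPM of DUR3, 281 and 283 CPM of uricase, and 357 and 303 CPM of allantoate deiminase. Control leaf 2, at 3570 CPM of the markers, had 31, 132 and 87.8 CPM. Urease accessory protein G went the other way there, with its highest control value, 128 CPM, in control leaf 2. At 100% the leaf of the highest marker sum, replicate 1 at 9060 CPM, had the highest allantoate deiminase (1390 CPM), DUR3 (29.1 CPM) and accessory protein G (115 CPM) and the lowest uricase (34.8 CPM). Uricase in control leaf 2 nonetheless stood above each 40% and 100% leaf. The clock genes were also higher at 100%, at 3310 to 3900 CPM in leaf against 1330 to 1400 in the controls, and at 1650 to 2040 against 831 to 1020 CPM in root. The part that senescence or the clock has in these values was not tested.

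**Figure D5:**
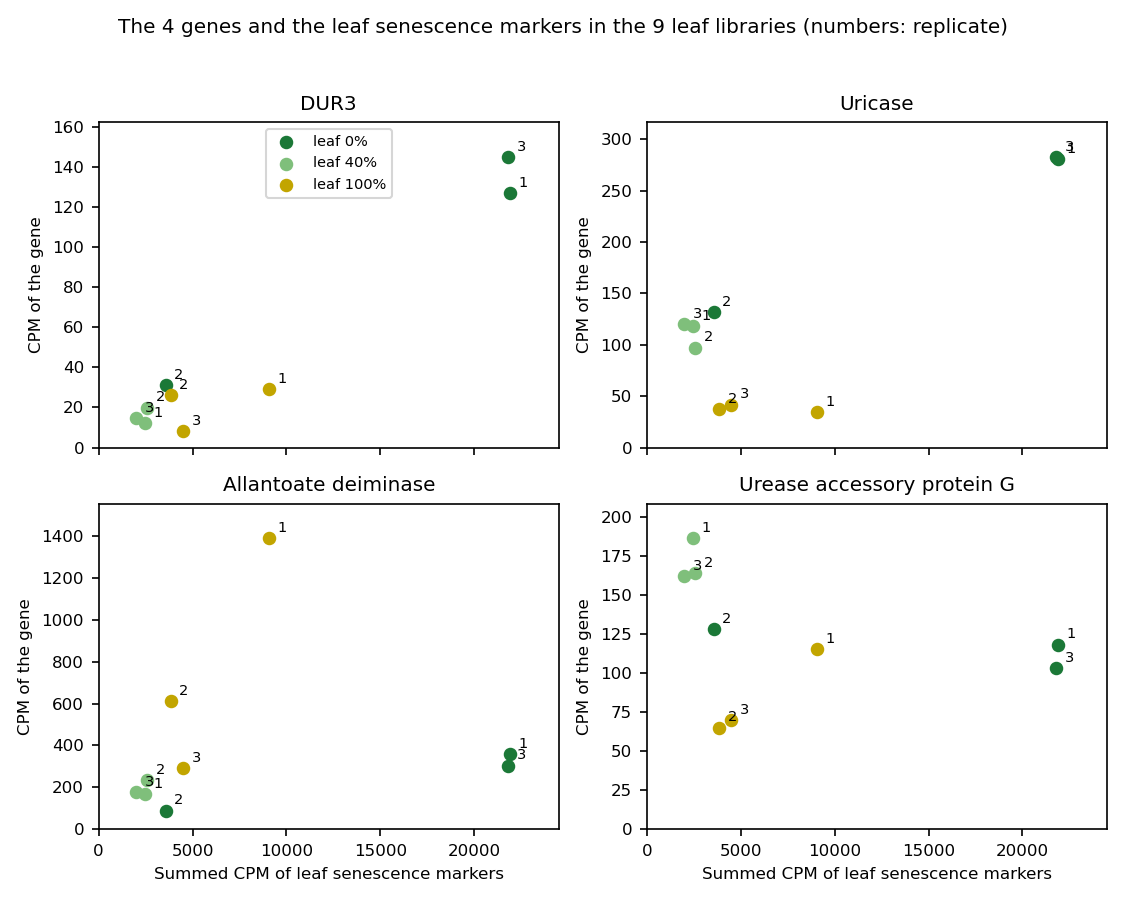
CPM of each of the 4 genes (vertical axis) beside the summed CPM of 38 leaf senescence marker loci (horizontal axis) in the 9 leaf libraries, both axes linear from 0, coloured by rate and numbered by replicate. Control leaves 1 and 3 (near 21900) stand far from control leaf 2 (3570), and the 100% leaves are the lowest for uricase at any marker sum.

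The genes most like each of the 4 were found by correlation of log2 CPM over the 18 libraries after the mean of the tissue was subtracted. The libraries share their groups and depth, and the values are descriptions. For uricase these were a MOSC domain protein D1007_56882 (r = 0.95, rho = 0.74), peroxisomal membrane protein 11-5 D1007_28608 (r = 0.95, rho = 0.74) and a sphingosine kinase 1-like gene D1007_33493 (r = 0.94, rho = 0.76). D1007_28608 had 76.2, 32.8 and 7.77 CPM in leaf at 0, 40 and 100%, and 66.8, 69.5 and 65.2 CPM in root. Within root alone its correlation with uricase was 0.15, against 0.98 within leaf.

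For DUR3 the closest were an alpha-glucosidase YihQ-like gene D1007_23349 (r = 0.92, rho = 0.91), a dolichyl-phosphate GlcNAc-phosphotransferase D1007_45519 (r = 0.91, rho = 0.74) and Glutamate receptor 2.7 D1007_41805 (r = 0.91, rho = 0.87). For allantoate deiminase they were an ENHANCED DISEASE RESISTANCE 2-like gene D1007_44236 (r = 0.91, rho = 0.88), a remorin-like gene D1007_37082 (r = 0.9, rho = 0.9) and the receptor-like kinase RBK1 D1007_47528 (r = 0.9, rho = 0.89). For urease accessory protein G they were vip1 D1007_03721 (r = 0.89, rho = 0.82), a sulfotransferase 13-like gene D1007_59187 (r = 0.88, rho = 0.8) and the kinase HT1 D1007_28506 (r = 0.88, rho = 0.84). None of the 4 was among the closest 3 of another. Between them, r was 0.61 for DUR3 and uricase, 0.22 for DUR3 and allantoate deiminase, 0.15 for uricase and accessory protein G, -0.22 for DUR3 and accessory protein G, -0.42 for allantoate deiminase and accessory protein G, and -0.47 for uricase and allantoate deiminase.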

How the data were processed

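Per the labels, RNA of 18 samples was sequenced, and the deposited table holds the authors' raw read counts for each gene, used unchanged. The submitters' processing notes name featureCounts 1.5.0-p3, HISAT2 2.0.5, DESeq2 1.20.0, CASAVA 1.8 and fastp, with no role. The build is not clear from them, and positions are those of the scaffolds in the table. Rules for strand and for reads with several matches are not given in the sources used here. CPM was computed from these counts and library totals, and the deposited gene length, one of the other values of the table, gave CPM per kilobase. The tests were those of edgeR 4.0.16, run in R 4.3.3 (quasi-likelihood test, TMM factors, filterByExpr with minimum count 10 and minimum total 15, 2-sided, Benjamini-Hochberg over all tested genes, threshold 0.05). Each tissue was 1 fit of 9 libraries (20032 genes in leaf, 21895 in root), and leaf against root and the difference in response on all 18 (24046 genes). The F value of a change gave its SE. The code was tested on simulated data.

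The 4 genes, the lists and the tests were chosen with earlier results of these data known. Besides the 4, the text names the most abundant other locus of each role, the 3 called loci of smallest adjusted p in each comparison, loci annotated like one of the 4, and the 3 loci most correlated with each. The N6-mAMP deaminase was named after its values were seen. The labels do not pair replicates, so no block was used. Alternatives were RLE factors, library size alone, no filter, at least 5 CPM in 3 libraries, a replicate block, DESeq2 1.42.0, the compared groups alone, a joint fit of both tissues, and leaving out each library. A list without the 15 loci that name another enzyme was added after seeing the data.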

Additional observations from a re-analysis of the deposited data

Results flagged for a closer look

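In 6 of the other pathway loci named here the response to fertilizer differed between root and leaf by the test of that difference on all 18 libraries (edgeR, adjusted p). In all, 6 of 31 were called at 100% beside 15.9% of all genes, and 1 of 31 at 40% beside 1.9%. The count at 100% takes the adjacent allantoinase-annotated loci as separate, although they may be parts of 1 gene. At 100% against 0%, root minus leaf was 2.31 on the log2 scale for the ureide permease D1007_07614 (adjusted p = 0.013, range over alternatives 0.00074 to 0.041), 1.14 for urease accessory protein F (adjusted p = 0.0094, range 0.00089 to 0.032) and 1.66 for uridine nucleosidase 2, D1007_50191 (adjusted p = 0.026, range 0.0011 to 0.069, lost in 6 of 24 alternatives). It was 2.78 and 2.89 for the adjacent allantoinase-annotated loci, the first starting at 1502269 (adjusted p = 0.043, range 0.0016 to 0.12, lost in 16 of 24 alternatives) and the second at 1502856 (adjusted p = 0.025, range 0.0025 to 0.067, lost in 6), of which control leaves 1 and 3 had 24.1 and 17.4 CPM of the first and 16.5 and 17.3 CPM of the second, and control leaf 2 had 1.82 and 2.56 CPM.

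At 40% against 0%, root minus leaf was -2.67 for an AMP deaminase, D1007_05098 (edgeR, adjusted p = 0.026, range 0.00026 to 0.081, lost in 8 of 24 alternatives), which had 10.8 ± 3.73 and 34.1 ± 17.3 CPM in leaf and 35.2 ± 5.45 and 17.9 ± 2.99 CPM in root (SD, n = 3). For uricase, D1007_27011, all 40% leaves were below all control leaves and all 40% roots above all control roots, a difference of 1.60. Results of these data chose the gene, so this is a description and no test of it is taken as evidence.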

How the results depend on the processing

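No called value changed sign under the alternatives run. Of counts of other pathway loci called, DESeq2 gave 9 in leaf at 100% against 0%, 7 in leaf at 40% against 0%, 6 in root at 100% against 0%, 1 in root at 40% against 0%, 4 in root at 100% against 40%, and 7 for the difference in response at 40%. With all 18 libraries in 1 fit the counts were 10, 8 and 0 in leaf at 100% and 40% and root at 100% against 0%, and 0 in root at 100% against 40%. With library size alone they were 9 in leaf at 100% against 0% and 15 for leaf against root at 100%. The compared groups alone gave 2 in root at 100% against 0% and 0 at 100% against 40%. Whether replicate numbers pair libraries is not in the labels, and the few pairs cannot decide it. Residual correlations of same-number pairs were -0.06 to 0.12 in leaf (2 of 9 over 0.1) and -0.16 to 0.16 in root. Other pairs had -0.15 to 0.13 and -0.19 to 0.18. In the fit of all 18 libraries the ranges were -0.14 to 0.14 for same-number pairs and -0.17 to 0.17 for others. With the replicate block, 3657 of all genes were called in leaf at 100% against 0% in place of 4597 and 1496 in root in place of 2240. The block gave 0 other pathway loci in root at 100% against 40%, as did no filter and the list without other enzymes, which left 2 in leaf at 100% against 40%. A minimum of 5 CPM gave 2 for the response at 40%. Leaving out 1 library gave 2 (without control leaf 3) to 10 (without control leaf 2) in leaf at 100% against 0%, 0 to 12 (without control leaf 2) at 40% against 0%, and 1 (without 40% leaf 1) to 6 (without control leaf 2) at 100% against 40%. In root it gave 0 (without control root 2) to 2 (without control root 1) at 100% against 0% and 0 to 1 at 100% against 40%. For the responses it gave 2 (without control leaf 1) to 11 (without control leaf 2) at 100% and 0 (without control leaf 1) to 10 (without control leaf 2) at 40%.

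For the 4 genes, DUR3 in leaf against root at 40% was -1.21 with RLE factors, -1.37 with library size alone and -1.21 with DESeq2, and -1.39 to -0.89 with 1 library left out. Uricase in leaf against root at 100% was -0.64 with library size alone. The responses at 100% were 2.90 for uricase and -0.40 for urease accessory protein G with library size alone. With 1 library left out, accessory protein G in leaf was -0.55 to -0.060 at 100% against 0% and -1.09 to -0.61 at 100% against 40%, and allantoate deiminase in leaf against root at 100% was 0.21 (without 100% leaf 1) to 1.29 (without 100% leaf 3). The cause was not tested. The 4 genes had at least 146 counts in each library, so counting error was small beside the spread between libraries.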
